A study of Mus musculus with 4 samples.

Results

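The Wnt pathway genes of mouse lymphatic endothelial cells were followed in a deletion mutant and in wild type, after and before culture on a stromal feeder. The set was chosen by symbol: the Wnt ligands, Frizzled receptors, Sfrp and Dkk antagonists and R-spondins, with Axin2, Lef1, Tcf7, Lrp5, Lrp6, Ctnnb1, Nkd1, Rnf43, Znrf3 and Notum. A gene was kept where it had 20 or more counts in at least 1 library. All 51 matching symbols of the 23337 in the count tables passed. The member nearest the limit was Dkk4, with 24 counts in its highest library, followed by Wnt10b with 27 and Wnt16 and Wnt1 with 31 each, and no matching symbol lay outside it.

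The 4 libraries were made from homozygous mutant and wild type cells after culture, and from homozygous mutant and wild type cells before it. The mutant carries a deletion that the labels do not describe further; the study's title is about a GATA2 bound enhancer, which the published study places at Prox1, whose homeobox factor sets lymphatic identity. Cells positive for LYVE1 and VECAD and negative for CD45 were sorted at embryonic day 14.5 from dorsal and anterior tissue, with the embryos of 1 litter pooled for each genotype. Some were lysed at once. The others spent 7 days on a feeder of OP9, a stromal line of mouse bone marrow that supports blood formation, with FLT3L, IL3 and SCF at 100 ng/ml each, and were sorted again for LYVE1 and VECAD, with no selection against CD45 stated. Each group is 1 library, so a difference between a pair of groups has no replicate check and no p-value, and genotype cannot be told apart from litter, sort or library. A test was possible only over all 4 libraries together, with culture and genotype as additive terms. All intervals are 95% intervals of counting error in these libraries. The deletion itself could not be checked in gene counts.

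Gene counts came to 3931557 in mutant and 1694669 in wild type cells after culture, against 7943587 in mutant and 3987150 in wild type cells before it. The sorted identity was checked on marker lists, as summed scaled CPM, the counts of a gene over the scaled total of its library. Lymphatic markers (10 genes) summed to 7481 in mutant and 8790 in wild type cells after culture, against 7579 in mutant and 7943 in wild type cells before it. The members of this list moved in both directions: beyond 2-fold and counting error, 3 rose and 4 fell in culture of mutant cells, and 4 rose and 4 fell in culture of wild type cells. Pdpn was at 0 counts in wild type cells after culture, and Prox1 had 459 counts in mutant and 284 in wild type cells after culture, against 4483 in mutant and 2526 in wild type cells before it. Pan-endothelial markers (10 genes) summed to 11744 and 12874 after culture, in mutant and wild type cells, against 4335 and 4064 before it. Leukocyte markers (7 genes) summed to 81.3 in mutant and 41.5 in wild type cells after culture, against 61.4 and 60.4 before it. Cd48 and Coro1a were at 0 in wild type cells after culture. The interval of the summed fold after culture, mutant over wild type, was 1.47 to 2.66. Beyond 2-fold and counting error, 1 of 5 measured rose and 1 fell in culture of mutant cells. In culture of wild type cells none of 4 measured did.

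Wnt proteins are secreted lipid-modified ligands that bind a Frizzled receptor together with the co-receptor LRP5 or LRP6, which stops the destruction of beta-catenin and lets it switch on target genes with the TCF and LEF factors. Secreted antagonists act on the ligands (Sfrp) or on the co-receptors (Dkk), R-spondins hold receptors at the surface by blocking RNF43 and ZNRF3, and Axin2 and Nkd1 are feedback targets. In mouse vessels, Frizzled 4 and LRP5 carry the Norrin signal that shapes retinal and brain capillaries, WNT2 and WNT9B are made by endothelium of the liver, and beta-catenin signalling is needed for lymphatic valves.

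The promoters of 5 members are shown because they are the genes that fell in culture of mutant cells and have an upstream window free of annotated transcript of the gene itself; they were picked after their values were seen. Each run is the 250 bases before a start site in RefSeq on GRCm38.p6, read 5′ to 3′ on the strand of the gene, and all 5 genes lie on the plus strand. Capitals mark a match to CTTTGT, a core bound by TCF and LEF factors, or to its reverse complement.
Sfrp2, chr3:83766071-83766320: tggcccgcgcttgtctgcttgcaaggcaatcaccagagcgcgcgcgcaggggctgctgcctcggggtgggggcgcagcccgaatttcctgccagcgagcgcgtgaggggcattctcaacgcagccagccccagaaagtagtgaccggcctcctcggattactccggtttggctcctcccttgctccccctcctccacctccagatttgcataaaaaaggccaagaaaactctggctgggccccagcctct
Dkk2, chr3:132085042-132085291: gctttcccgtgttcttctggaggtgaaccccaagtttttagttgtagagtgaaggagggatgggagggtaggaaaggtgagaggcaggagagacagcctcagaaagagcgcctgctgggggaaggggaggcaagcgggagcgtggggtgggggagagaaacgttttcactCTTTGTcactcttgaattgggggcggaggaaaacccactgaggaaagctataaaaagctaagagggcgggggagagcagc
Fzd7, chr1:59481897-59482146: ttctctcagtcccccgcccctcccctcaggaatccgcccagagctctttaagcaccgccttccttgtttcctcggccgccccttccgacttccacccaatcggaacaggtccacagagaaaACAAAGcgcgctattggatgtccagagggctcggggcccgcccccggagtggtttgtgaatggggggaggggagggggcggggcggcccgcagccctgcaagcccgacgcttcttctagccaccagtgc
Rspo1, chr4:124986180-124986429: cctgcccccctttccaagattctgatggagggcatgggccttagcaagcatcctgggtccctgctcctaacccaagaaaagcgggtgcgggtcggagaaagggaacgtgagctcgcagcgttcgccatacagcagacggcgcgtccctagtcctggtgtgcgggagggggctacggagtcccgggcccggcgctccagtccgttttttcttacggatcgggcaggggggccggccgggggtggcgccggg
Axin2, chr11:108920099-108920348: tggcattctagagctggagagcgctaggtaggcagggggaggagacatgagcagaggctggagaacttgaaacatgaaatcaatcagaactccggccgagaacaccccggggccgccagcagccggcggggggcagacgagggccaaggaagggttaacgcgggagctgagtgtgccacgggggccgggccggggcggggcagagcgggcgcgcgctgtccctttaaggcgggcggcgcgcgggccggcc
The windows of Dkk2 and Fzd7 each held 1 match, and none of the 5 held the other TCF and LEF core searched, CTTTGA, or the GATA core GATAA, on either strand. RefSeq gave 42 promoters for 33 of the 51 members, and CTTTGA was found in 11.9% of them, against 13.8% of all 32851 promoters. CTTTGT was found in 14.3% of the member promoters, against 16.5% of all promoters, and GATAA in 14.3% against 22.6%. A match of this length is a description of the letters in the window.

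The libraries carried counts in genes with no known role in these cells, which sets how low a member can be read. The 1429 olfactory and vomeronasal receptor genes with a known length, here called silent genes, had 1.61 counts per kb of coding sequence in mutant and 0.538 in wild type cells after culture, against 8.35 in mutant and 6.65 in wild type cells before it. At that rate per kb of exon, background would make up 4.03% of gene counts in mutant and 3.12% in wild type cells after culture, against 10.3% in mutant and 16.4% in wild type cells before it. A member was taken as above background where the lower bound of its count exceeded this expectation. That held for 41 of 51 members in mutant and 29 in wild type cells after culture, against 48 in mutant and 38 in wild type cells before it. In total, 26 members were above background in all 4 libraries and 2, Wnt10b and Wnt16, in none. Applied to exon length, this coding rate overstated the silent genes' own counts. Over the full list of 1450 such genes, counts were 0.294 times this expectation in mutant and 0.290 in wild type cells after culture. Before culture they were 0.295 and 0.293 times. A rate per kb of exon in the silent genes was lower in every library. It came close to their counts, with 13157 against 12918 expected in mutant cells before culture. At that exon rate, 36 members were above background in all 4.

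**Figure D1:**
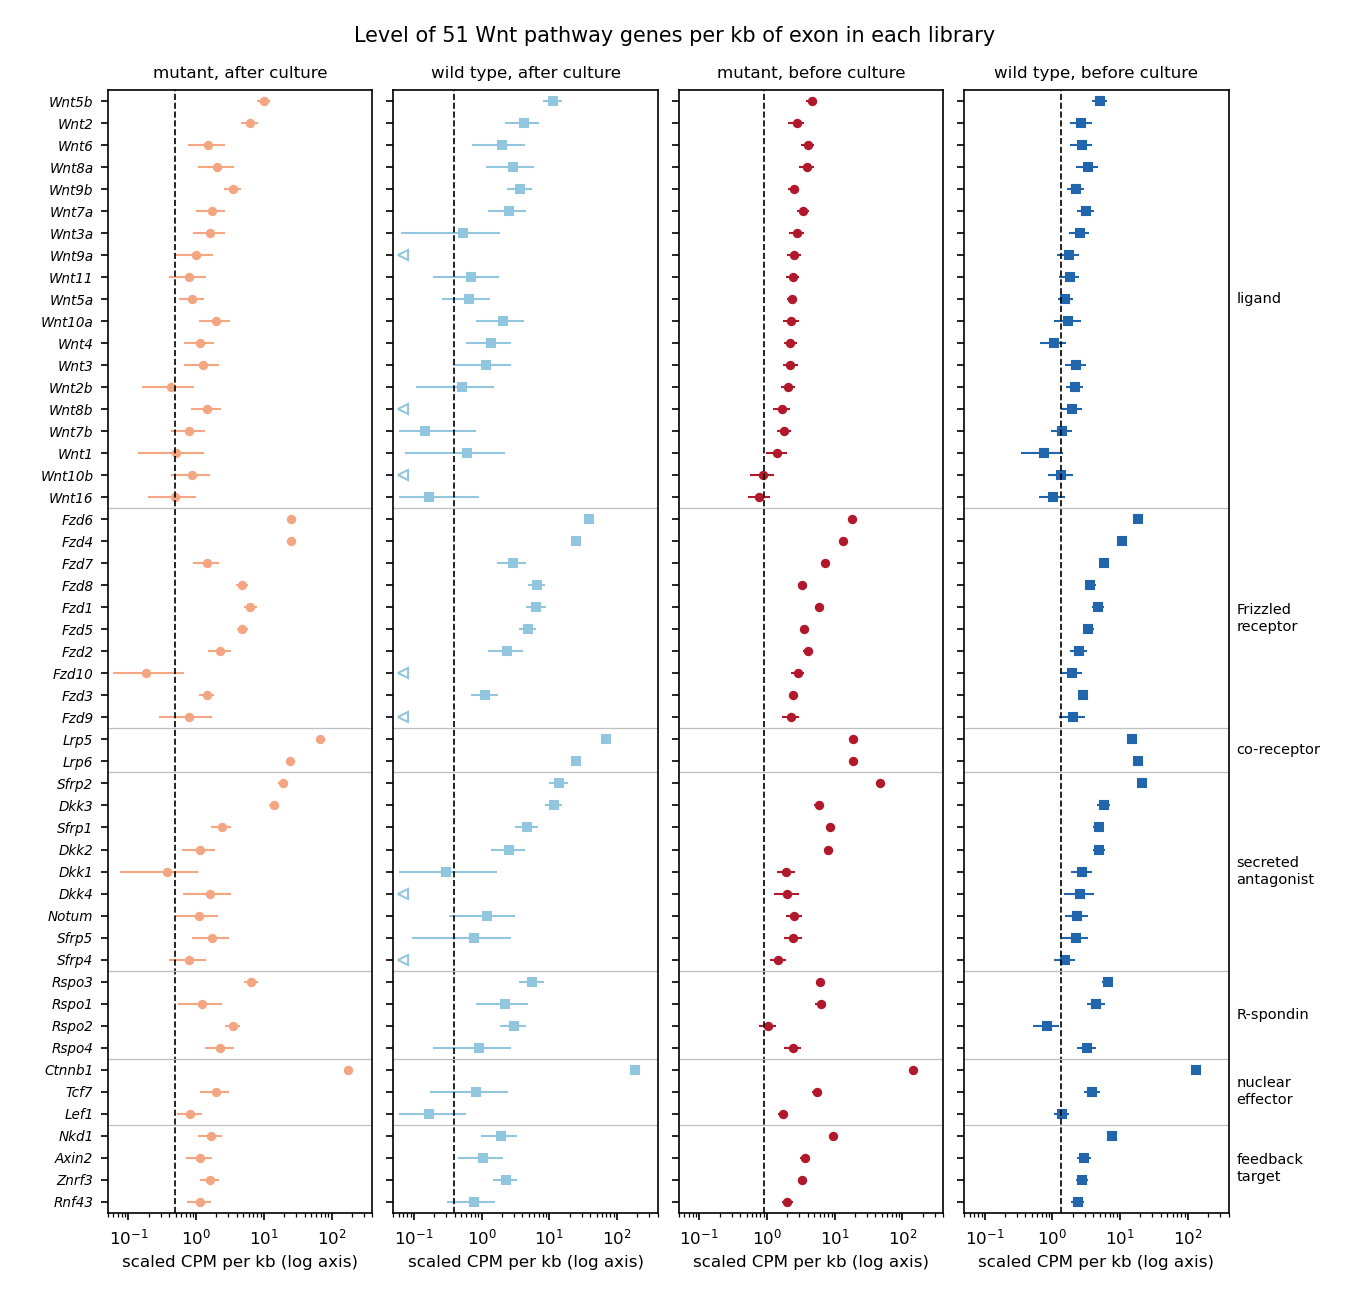
Level of each of the 51 Wnt pathway genes in the 4 libraries, as scaled CPM per kb of exon on a log axis, grouped by role. Points are levels, lines their 95% Poisson intervals, open triangles 0 counts, and the dashed line is the level of the silent genes per kb of coding sequence (0.482 and 0.391 after culture in mutant and wild type cells, 0.906 and 1.33 before it); Ctnnb1, Lrp5, Lrp6, Fzd4, Fzd6 and Sfrp2 stand far to the right of it and most ligands near it.

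Per kb of exon, Ctnnb1 had the highest level of the 51 in every library, at 175 scaled CPM per kb in mutant and 188 in wild type cells after culture, against 145 in mutant and 132 in wild type cells before it. Lrp5 came next after culture, at 67.3 in mutant and 69.2 in wild type cells, and Sfrp2 next before culture, at 47.2 in mutant and 21.3 in wild type cells. Among the Frizzled receptors, Fzd6 and Fzd4 were the highest in all 4 libraries. How far the Wnt ligands stood above background depended on the rate used. At the coding rate the 19 together held 3.62 times the counts expected from background in mutant and 3.91 times in wild type cells after culture, against 2.55 times in mutant and 1.48 times in wild type cells before it. At the exon rate these were 12.5 and 13.5 times after culture in mutant and wild type cells, and 8.81 and 5.11 times before it. Only Wnt2, Wnt5b, Wnt6, Wnt7a, Wnt8a and Wnt9b were above background in all 4 libraries, under the coding rate.

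Wnt2, which acts through beta-catenin and is made by liver endothelium in the mouse, had 47 counts in mutant and 13 in wild type cells after culture, against 57 in mutant and 30 in wild type cells before it. Set against the counts expected from silent genes at the coding rate, these were 12.9 and 10.7 times after culture in mutant and wild type cells. Before culture they were 3.03 and 2 times. Wnt9b, the other ligand known from liver endothelium, had 53 counts in mutant and 23 in wild type cells after culture, against 103 in mutant and 50 in wild type cells before it. These were 7.27 and 9.46 times the expectation after culture in mutant and wild type cells, and 2.73 and 1.67 times before it. Wnt5b, a ligand known for signalling outside beta-catenin and the highest ligand per kb, had 89 counts in mutant and 41 in wild type cells after culture, against 113 in mutant and 66 in wild type cells before it. It stood 20.8 and 28.7 times above the expectation after culture in mutant and wild type cells, and 5.10 and 3.74 times before it. Wnt5a, its closest relative, had 23 counts in mutant and 7 in wild type cells after culture, against 169 in mutant and 61 in wild type cells before it, and at the coding rate was not above background in either wild type library. At the exon rate it was above background in both, at 5.73 times the expectation after culture and 4.04 times before it.

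**Figure D2:**
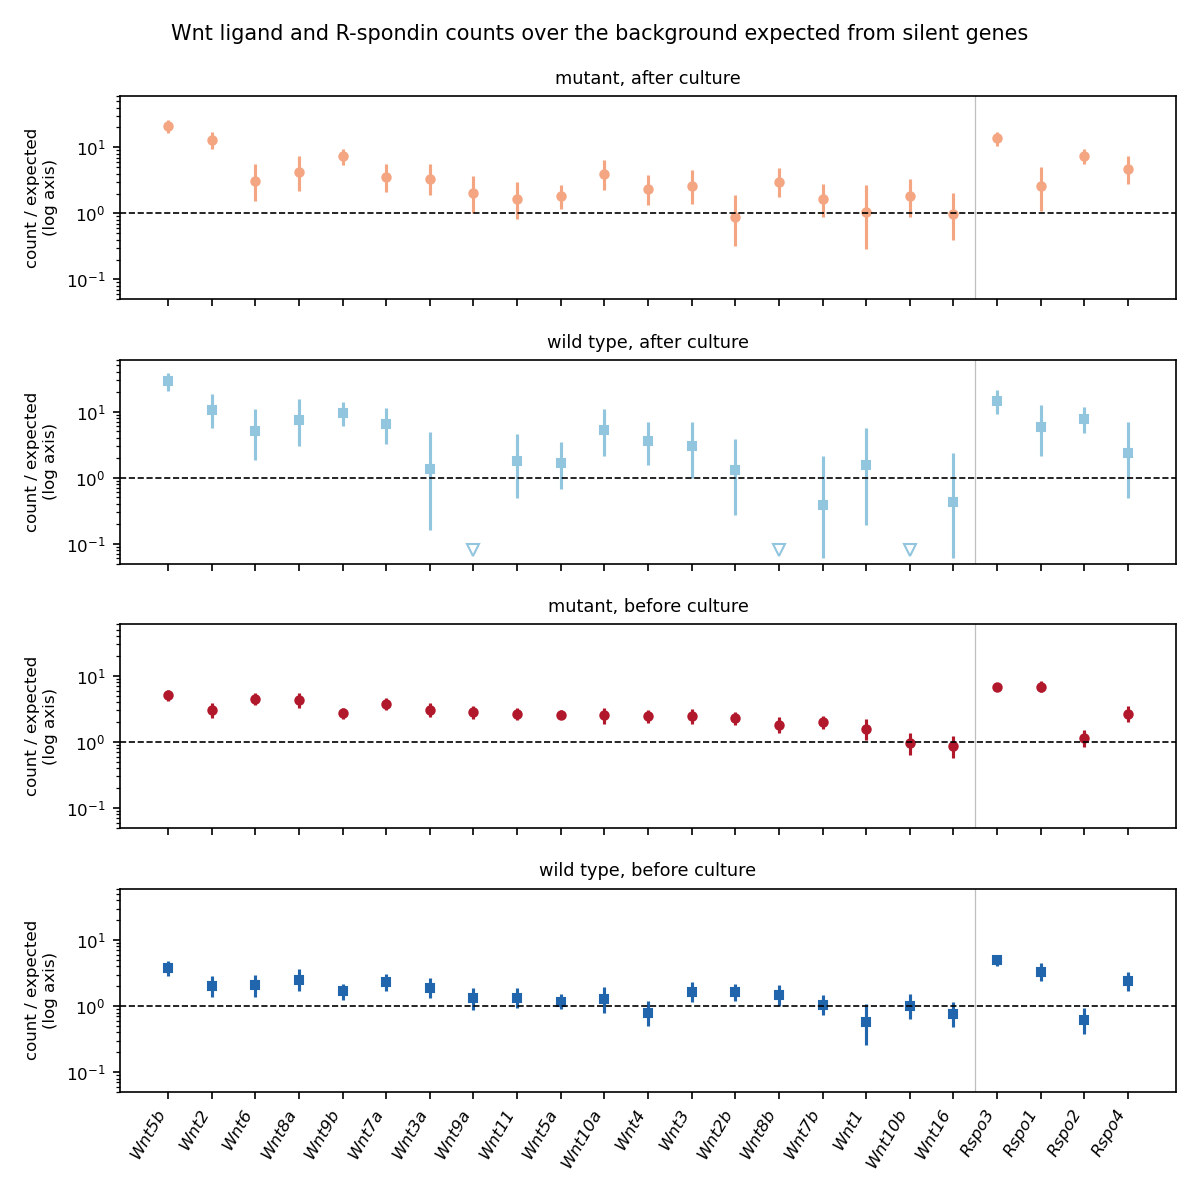
Counts of the 19 Wnt ligands and 4 R-spondins divided by the counts expected from silent genes at their coding rate, on a log axis, in the 4 libraries. Points are ratios with 95% Poisson intervals, open triangles are 0 counts and the dashed line is 1; Wnt5b, Wnt2, Wnt9b and Rspo3 lie above it in every library, and Rspo2 clearly only after culture.

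The comparison of genotypes before culture asks what the deletion changes in freshly sorted cells. A fold is the ratio of scaled CPM, mutant over wild type, and a gene was called where its whole interval lay beyond 2-fold. None of the 51 members was called, against 0.0158% of the 18934 genes tested called higher and 0.0475% called lower. The interval lay above 1 for 12 members and below 1 for none, against 17.6% of all genes above 1 and 8.54% below. The median log2 fold was 0.17 over the members and 0.04 over all genes, while the silent genes together had a fold of 0.69. Subtracting the coding-rate background left 0 of 49 members called, against 0.0553% of all genes called higher and 0.0111% lower.

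Of the 12 members with an interval above 1, Sfrp2 had the highest fold, and Sfrp1 and Dkk2 were also among them. Sfrp2, a secreted Frizzled-related protein abundant in embryonic mesenchyme, had 937 counts in mutant and 228 in wild type cells, or 102 and 45.8 scaled CPM, a fold of 2.22 (1.92 to 2.58). Its relative Sfrp1 had 347 counts in mutant and 106 in wild type cells, a fold of 1.77 (1.42 to 2.22). Dkk2, which binds the LRP co-receptors, had 269 counts in mutant and 91 in wild type cells, a fold of 1.60 (1.26 to 2.05). All 3 were higher in the mutant library with intervals above 1. Dkk3, a divergent family member, had 180 counts in mutant and 96 in wild type cells, with a fold of 1.01 (0.787 to 1.31), and Dkk1 had 43 and 33, with a fold of 0.705 (0.437 to 1.14).

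These antagonists were read beside the markers of other cells. The 12 stromal markers, among them Col1a1, Pdgfra and Dcn, summed to 5452 scaled CPM in mutant and 3434 in wild type cells before culture, a fold of 1.59 (1.56 to 1.62), with 11 of 12 intervals above 1 and none of the 12 called. None of them was at 0 in these 2 libraries. The 6 cartilage markers summed to 1211 in mutant and 788 in wild type cells. The part of stromal cells in the Sfrp1, Sfrp2 and Dkk2 values was not tested, and in bulk libraries more cells of a type and more RNA per cell cannot be told apart.

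The remaining intervals above 1 belonged to receptors, ligands and nuclear genes. Lrp5 had 1673 counts in mutant and 727 in wild type cells before culture, a fold of 1.24 (1.14 to 1.36), and Fzd4 had 824 and 364, a fold of 1.22 (1.08 to 1.39). Fzd7 had 305 counts in mutant and 130 in wild type cells, a fold of 1.27 (1.03 to 1.57), and Nkd1, a feedback inhibitor of Dishevelled, had 395 and 171, a fold of 1.25 (1.04 to 1.5). Tcf7, which encodes the factor TCF1, had 134 counts in mutant and 51 in wild type cells, a fold of 1.42 (1.02 to 2). Ctnnb1, the gene of beta-catenin, had 6953 counts in mutant and 3426 in wild type cells, a fold of 1.1 (1.05 to 1.14) that fell under 1 where the coding-rate background was subtracted and the scaling recomputed. Wnt4, Wnt5a and Fzd2 are named here only because their intervals lay above 1. Their folds were 2.11 (1.31 to 3.55) on 86 counts in mutant and 22 in wild type cells, 1.5 (1.11 to 2.04) on 169 and 61, and 1.65 (1.17 to 2.36) on 137 and 45. The 22 counts of Wnt4 in wild type cells were 0.789 times the background expectation at the coding rate. At the exon rate they were 2.72 times the expectation and above background.

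Wnt2 and Wnt9b showed no difference beyond counting error, with folds of 1.03 (0.649 to 1.66) and 1.11 (0.787 to 1.59). Axin2, the target most often used as a readout of beta-catenin signalling, had 183 counts in mutant and 81 in wild type cells, a fold of 1.22 (0.936 to 1.61). Lef1, whose product binds beta-catenin on DNA, had 139 and 60, a fold of 1.25 (0.919 to 1.73). Lrp6 had 2342 counts in mutant and 1270 in wild type cells, a fold of 0.997 (0.931 to 1.07).

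**Figure D3:**
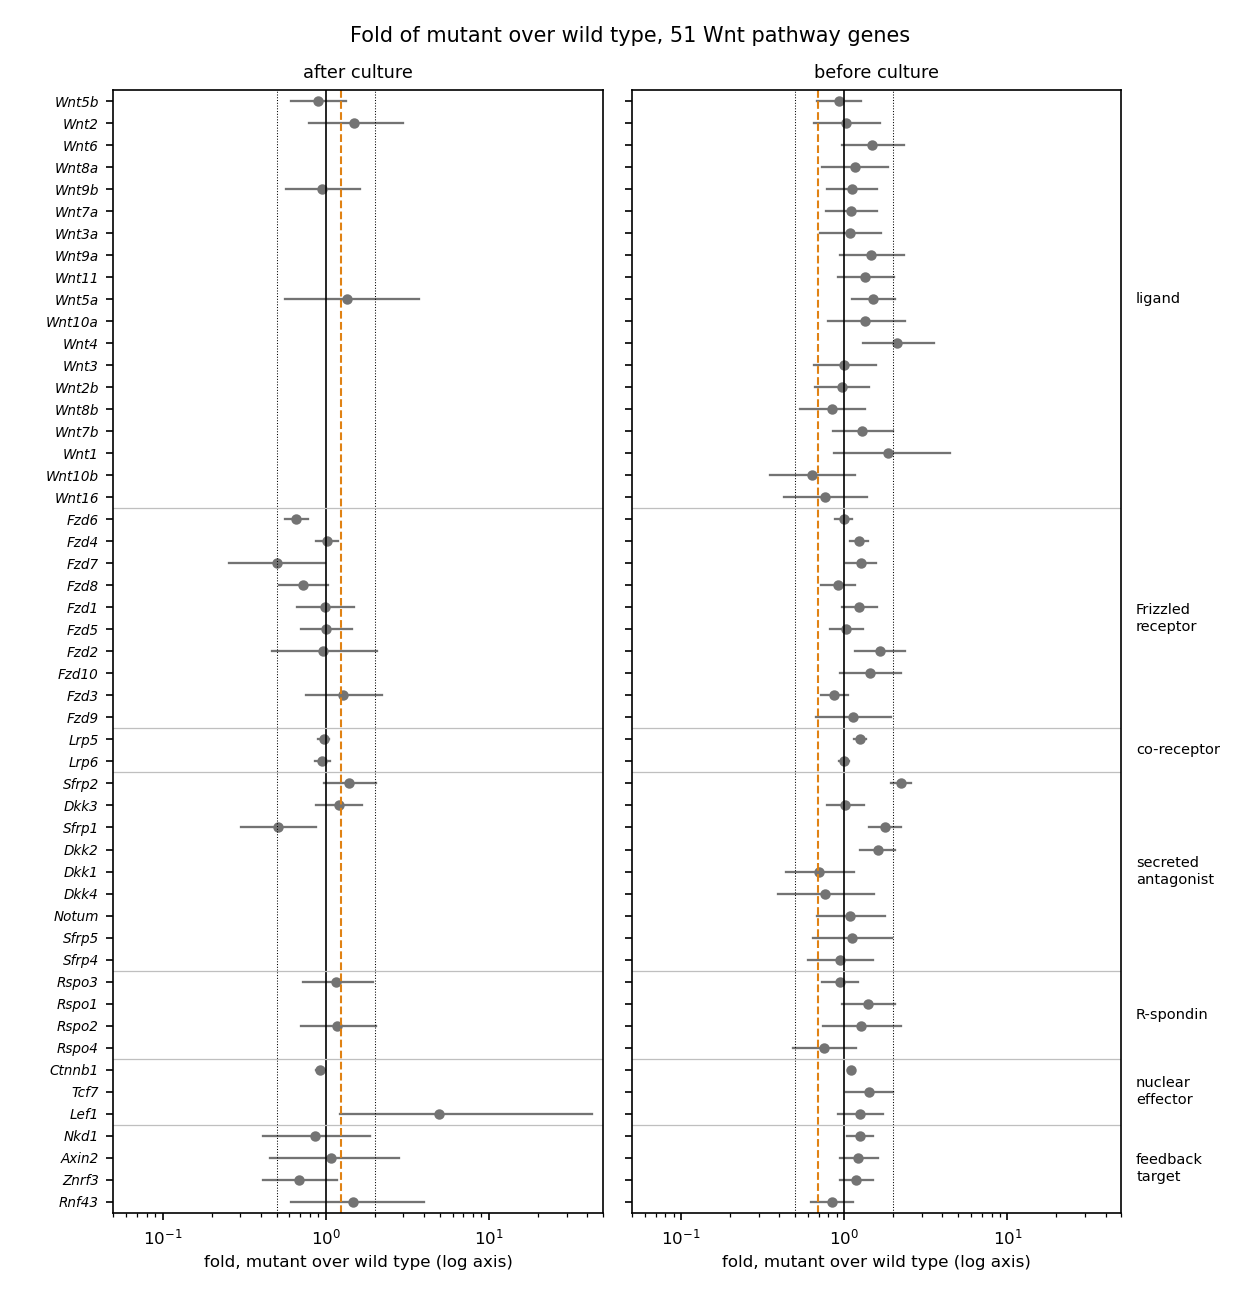
Fold of mutant over wild type for the members with 20 or more counts in at least 1 of the 2 libraries, after culture (left) and before culture (right), on a log axis with 95% intervals. The solid line is 1, dotted lines are 0.5 and 2, and the dashed orange line is the summed fold of the silent genes (1.25 after culture and 0.69 before it); no interval lies wholly beyond the dotted lines.

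After culture the same comparison asks whether the genotypes differ once the cells have grown on OP9. Only 25 members had enough counts, and none was called, against 0.065% of 12309 genes called higher and 0.0731% called lower. The interval lay above 1 for 1 member and below 1 for 4, against 9.33% and 12.3% of all genes. The median log2 fold was -0.02 over these members and 0.00 over all genes, with a fold of 1.25 for the silent genes. With background subtracted, 0 of 25 members were called, against 0.0163% of all genes higher and 0.106% lower.

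Fzd6, a Frizzled known for planar cell polarity, had 412 counts in mutant and 256 in wild type cells after culture, or 123 and 186 scaled CPM, a fold of 0.662 (0.565 to 0.776). Fzd7 had 22 counts in mutant and 18 in wild type cells, a fold of 0.502 (0.257 to 0.994). Sfrp1 had 35 and 28, a fold of 0.514 (0.304 to 0.877). Ctnnb1 had 3031 and 1340, a fold of 0.930 (0.872 to 0.992). Lef1 was the member with its interval above 1, on 24 counts in mutant and 2 in wild type cells, a fold of 4.93 (1.22 to 43.1). At the coding rate its 24 counts in mutant cells were above background, at 1.69 times the expectation. Its 2 counts in wild type cells were not, at 0.423 times, and the fold was 1.35 (0.302 to 6) after that background was subtracted. At the exon rate the counts were 5.84 and 1.46 times the expectation, again above background only in mutant cells. Sfrp2 had 139 counts in mutant and 41 in wild type cells, a fold of 1.39 (0.977 to 2.03), and Axin2 had 21 and 8, a fold of 1.08 (0.459 to 2.82).

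More members were called between culture states than between genotypes. After culture over before it, in mutant cells, 2 of 51 members were called higher, against 5.19% of 18807 genes, and 9 were called lower, against 3.46%. As shares of the members these were 3.92% and 17.6%. In wild type cells, 1 of 49 measured members was called higher, against 8.17% of 17154 genes, and 2 were called lower, against 4.34%, or 2.04% and 4.08% of the members. The median log2 fold over members was -0.83 in mutant and -0.95 in wild type cells, against -0.10 and -0.05 over all genes. The silent genes moved the same way, with summed folds of 0.530 in mutant and 0.291 in wild type cells, which is the fold of a member that holds background alone. Intervals lay above 1 for 11 members and below 1 for 26 in mutant cells, against 32.4% and 26.9% of all genes, and for 9 and 15 in wild type cells, against 33.9% and 24.9%. The mutant libraries held more counts than the wild type ones, so the numbers of calls in the 2 genotypes are not comparable on their own.

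Subtracting the coding-rate background left 3 members called higher and 7 called lower in mutant cells, against 7.29% and 2.44% of all genes under the same rule. It left 2 called higher and none lower in wild type cells, against 13.2% and 1.36%. The lower calls that remained in mutant cells were Fzd7, Fzd10, Sfrp1, Sfrp2, Dkk2, Rspo1 and Nkd1. The median log2 fold was then -0.78 over 50 members in mutant cells and 0.27 over 45 in wild type cells, so the sign of the median in wild type cells depended on the background. The higher calls were Lrp5, Rspo2 and Dkk3 in mutant cells and Lrp5 and Fzd4 in wild type cells.

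Both culture comparisons were also put into 1 fit over the 4 libraries, with genotype as a block, tested with edgeR's quasi-likelihood test and Benjamini-Hochberg adjustment over 18949 genes. This fit takes the culture effect as equal in both genotypes, has 1 residual degree of freedom with a spread shared across genes, and asks whether a fold differs from 1 and not from 2. Its errors and p-values do not measure a spread between replicate libraries. For Lrp5, Fzd7 and Sfrp2, named below, an equal effect did not hold within counting error. The culture fold in mutant over that in wild type cells was 0.782, 0.396 and 0.627, with intervals below 1. At an adjusted p under 0.05, 7 of 51 members were higher after culture, against 23.4% of all genes, and 21 were lower, against 17.4%. As shares of the members these were 13.7% and 41.2%. Of 185 silent genes with enough counts, 15 were called lower and none higher in this fit, with 49 and 0 at an unadjusted p under 0.05. Lrp5 was higher by 1.99 ± 0.18 on the log2 scale (SE; edgeR adjusted p = 7.2e-28), and Nkd1 fell by 2.35 ± 0.31 (edgeR adjusted p = 3.6e-13). Fzd7 fell by 1.78 ± 0.32 (edgeR adjusted p = 2.8e-07), Sfrp2 by 1.07 ± 0.21 (edgeR adjusted p = 4.7e-06) and Axin2 by 1.63 ± 0.40 (edgeR adjusted p = 0.00031). Fzd4, not called in either genotype by counting error, was higher by 0.99 ± 0.18 (edgeR adjusted p = 1.8e-07). For genotype, with culture as the block, edgeR called no member, against 0.0106% of all genes higher and 0.0211% lower; 1 member, Sfrp2, had an unadjusted p under 0.05, higher in mutant cells by 0.88 ± 0.21 (edgeR adjusted p = 0.069).

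Lrp5, the co-receptor of Norrin and Wnt ligands, rose in both genotypes. It had 2192 counts in mutant and 926 in wild type cells after culture, against 1673 in mutant and 727 in wild type cells before it. As scaled CPM these were 655 in mutant and 674 in wild type cells after culture, and 182 and 146 before it. The folds were 3.61 (3.39 to 3.85) in mutant and 4.62 (4.19 to 5.10) in wild type cells. The summed level of the 10 pan-endothelial markers was 2.71 times higher after culture in mutant and 3.17 times higher in wild type cells. Of those markers, 7 in mutant and 8 in wild type cells were called higher, with single folds of up to 11.1 in mutant and 14.3 in wild type cells.

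The sister co-receptor Lrp6 had 1103 counts in mutant and 474 in wild type cells after culture, against 2342 in mutant and 1270 in wild type cells before it. Its folds were 1.30 (1.21 to 1.39) in mutant and 1.35 (1.21 to 1.5) in wild type cells, and they turned below 1 under library totals without the scaling factor. Ctnnb1 gave folds of 1.20 (1.15 to 1.25) in mutant and 1.42 (1.33 to 1.51) in wild type cells, which likewise turned below 1 under library totals. Its exons share 759 bases with Ulk4 on the other strand, and the strand setting of the counting is not given in the sources used here.

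The Frizzled receptors divided. Fzd4, the Norrin receptor, had 168 scaled CPM in mutant and 165 in wild type cells after culture, against 89.4 in mutant and 73.1 in wild type cells before it, folds of 1.88 (1.68 to 2.09) and 2.26 (1.91 to 2.68) that were not called. Fzd6 had 123 scaled CPM in mutant and 186 in wild type cells after culture, against 87.0 in mutant and 87.9 in wild type cells before it, folds of 1.42 (1.25 to 1.60) and 2.12 (1.81 to 2.48). With both intervals above 1, these 2 receptors were higher after culture than before in each genotype by more than counting error, under the scaling used. Under library totals, which shift log2 folds by -0.45 in mutant culture, neither fold turned below 1. The interval of Fzd6 in mutant cells then took in 1. Fzd7, a receptor of stem and mesenchymal cells, had 22 counts in mutant and 18 in wild type cells after culture, against 305 in mutant and 130 in wild type cells before it. It fell in mutant cells, 5.03-fold (3.26 to 8.15), and had a fold of 0.502 (0.288 to 0.825) in wild type cells. Fzd10 had 2 counts in mutant and 0 in wild type cells after culture, against 85 in mutant and 32 in wild type cells before it. It fell 15.4-fold (4.14 to 129) in mutant cells and was not called in wild type cells, where background subtraction gave a fold of 1.05 (0.221 to 4.95).

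Of the 9 secreted antagonists, Sfrp1, Sfrp2 and Dkk2 fell in mutant cells, and none was called in wild type cells. Sfrp2 had 41.6 scaled CPM in mutant and 29.8 in wild type cells after culture, against 102 in mutant and 45.8 in wild type cells before it. It fell 2.45-fold (2.05 to 2.95) in mutant cells and had a fold of 0.652 (0.456 to 0.912) in wild type cells. Sfrp1 had 10.5 scaled CPM in mutant and 20.4 in wild type cells after culture, against 37.7 in mutant and 21.3 in wild type cells before it. It fell 3.60-fold (2.54 to 5.25) in mutant cells, and its fold in wild type cells was 0.958 (0.608 to 1.46). Dkk2 had 14 counts in mutant and 13 in wild type cells after culture, against 269 in mutant and 91 in wild type cells before it. It fell 6.97-fold (4.08 to 12.9) in mutant cells and had a fold of 0.518 (0.266 to 0.931) in wild type cells. Dkk1, a strong inhibitor of the co-receptors, had 3 counts in mutant and 1 in wild type cells after culture, against 43 in mutant and 33 in wild type cells before it, and was above background only in the libraries before culture. Dkk3 had 47.2 scaled CPM in mutant and 39.3 in wild type cells after culture, against 19.5 in mutant and 19.3 in wild type cells before it, folds of 2.42 (1.94 to 3.01) and 2.04 (1.43 to 2.88).

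The stromal markers are given beside these antagonists. Their sum was 1118 scaled CPM in mutant and 1289 in wild type cells after culture, against 5452 in mutant and 3434 in wild type cells before it, and 8 of 12 were called lower in mutant and 7 of 12 in wild type cells. Lum was at 0 in wild type cells after culture and no other stromal marker was at 0 in any library. Cartilage markers summed to 278 in mutant and 251 in wild type cells after culture, against 1211 in mutant and 788 in wild type cells before it, with 5 of 6 and 4 of 6 called lower. The 5 adipocyte markers, a fate that OP9 cells can take, summed to 368 in mutant and 536 in wild type cells after culture, against 49.4 in mutant and 58.2 in wild type cells before it. Their members did not move alike. In culture of mutant cells 2 of 5 were called higher and 1 had an interval below 1, while in wild type cells all 4 measured were called higher. After culture 2 of 4 measured were called lower in mutant than in wild type cells and 0 higher. The part of these cells in the antagonist values was not tested.

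**Figure D4:**
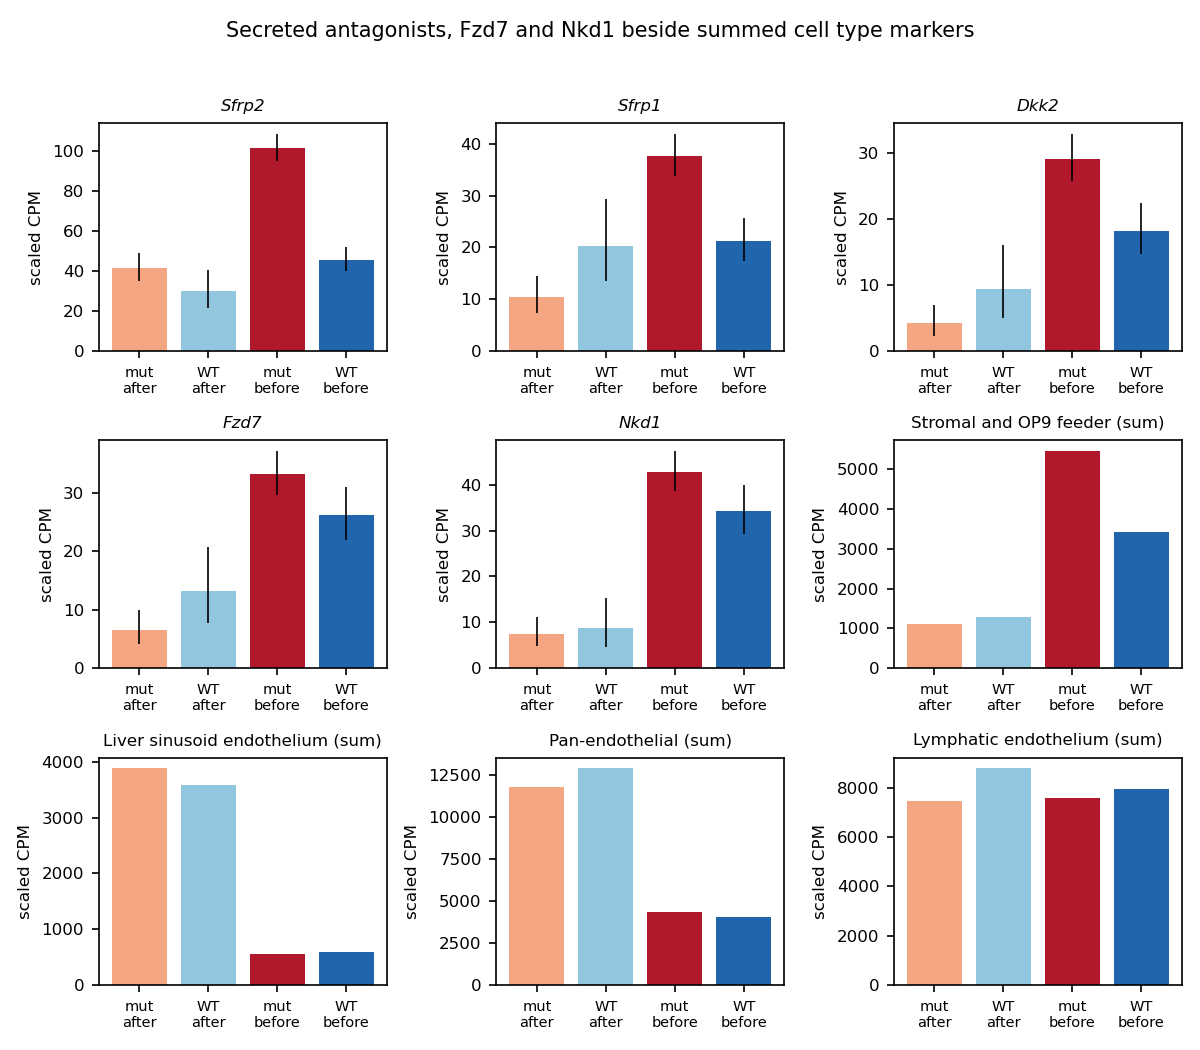
Scaled CPM of Sfrp2, Sfrp1, Dkk2, Fzd7 and Nkd1 in the 4 libraries, with 95% Poisson intervals, beside the summed scaled CPM of 4 marker lists. Before culture the stromal sum is 5452 in mutant and 3434 in wild type cells and after it 1118 and 1289, and all 5 genes have their highest level in mutant cells before culture.

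Of the 4 R-spondins, Rspo2 rose and Rspo1 fell in mutant cells, and none was called in wild type cells. Rspo2 had 60 counts in mutant and 21 in wild type cells after culture, against 49 in mutant and 21 in wild type cells before it. The libraries after culture held fewer counts in all. Rspo2 rose 3.37-fold (2.27 to 5.03) in mutant cells, with a fold of 3.63 (1.88 to 6.98) in wild type cells that was not called. At the coding rate its counts before culture were 1.15 times the expectation in mutant and 0.618 times in wild type cells, against 7.28 and 7.64 times after culture. At the exon rate these were 3.96 and 2.13 times before culture, above background in both, and 25.1 and 26.3 times after it. Rspo1, which in mouse is best known for ovary development, had 8 counts in mutant and 6 in wild type cells after culture, against 111 in mutant and 43 in wild type cells before it. It fell 5.04-fold (2.47 to 12) in mutant cells and had a fold of 0.506 (0.176 to 1.19) in wild type cells. Rspo3, an endothelial R-spondin in mouse, had 20.3 scaled CPM in mutant and 17.5 in wild type cells after culture, against 19.0 in mutant and 20.3 in wild type cells before it, folds of 1.07 (0.797 to 1.42) and 0.861 (0.528 to 1.35). Rspo4 had 18 counts in mutant and 3 in wild type cells after culture, against 53 in mutant and 38 in wild type cells before it.

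Among the ligands, Wnt2b was called in mutant cells and no ligand in wild type cells. Wnt2b had 6 counts in mutant and 3 in wild type cells after culture, against 80 in mutant and 45 in wild type cells before it, a fall of 4.84-fold (2.13 to 13.6) in mutant cells. After background was subtracted its fold was 0.184 (0.0354 to 0.955) and it was no longer called. Wnt2 had folds of 2.27 (1.51 to 3.40) in mutant and 1.57 (0.752 to 3.10) in wild type cells, and Wnt9b of 1.42 (0.998 to 1.99) and 1.67 (0.971 to 2.78). With coding-rate background subtracted, the folds of Wnt2 were 3.13 (1.91 to 5.14) in mutant and 2.85 (1.12 to 7.24) in wild type cells, and those of Wnt9b 1.93 (1.25 to 2.98) and 3.73 (1.63 to 8.57). None of these was called, but all 4 of the intervals subtracted at this rate lay above 1. With exon-rate background the folds of Wnt2 were 2.46 (1.63 to 3.70) in mutant and 1.79 (0.889 to 3.59) in wild type cells. The interval in wild type cells then took in 1. Wnt5b had folds of 2.17 (1.62 to 2.89) in mutant and 2.25 (1.49 to 3.38) in wild type cells.

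Markers of liver sinusoid endothelium, the mouse vessel bed in which WNT2 and WNT9B are known, were read beside these ligands. The 10 genes summed to 3883 scaled CPM in mutant and 3587 in wild type cells after culture, against 559 in mutant and 585 in wild type cells before it. In each genotype 5 of 10 were called higher and 0 lower, and none was at 0 in any library. Their single folds ran from 0.735 to 67.0 in mutant and from 0.577 to 90.7 in wild type cells. Folds lay under 1 for 1 gene in mutant and 3 in wild type cells. Their part in the Wnt2 and Wnt9b values was not tested.

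Among feedback targets and nuclear factors, Nkd1 fell in both genotypes, Axin2 in mutant cells and Lef1 in wild type cells. Nkd1 had 25 counts in mutant and 12 in wild type cells after culture, against 395 in mutant and 171 in wild type cells before it. It fell 5.73-fold (3.83 to 8.97) in mutant and 3.93-fold (2.19 to 7.76) in wild type cells, and with coding-rate background subtracted the fold in wild type cells was 0.246 (0.118 to 0.513), no longer called. Axin2 had 21 counts in mutant and 8 in wild type cells after culture, against 183 in mutant and 81 in wild type cells before it. It fell 3.16-fold (2.01 to 5.23) in mutant cells and had a fold of 0.358 (0.150 to 0.740) in wild type cells, and with background subtracted the fold in mutant cells was 0.244 (0.113 to 0.524), no longer called. Lef1 fell 8.28-fold (2.19 to 69.9) in wild type cells, on 2 counts after culture against 60 before it. Those 60 were 1.03 times the background expectation at the coding rate, and 3.54 times, above background, at the exon rate. In mutant cells Lef1 had 24 counts after culture against 139 before it, a fold of 0.476 (0.295 to 0.737). Tcf7 had 17 counts in mutant and 3 in wild type cells after culture, against 134 in mutant and 51 in wild type cells before it, folds of 0.350 (0.198 to 0.581) and 0.213 (0.0426 to 0.659). The receptor ubiquitin ligases were not called, with folds of 0.486 (0.342 to 0.677) in mutant and 0.831 (0.516 to 1.29) in wild type cells for Znrf3, and 0.569 (0.354 to 0.881) and 0.325 (0.127 to 0.703) for Rnf43. Antisense transcripts share exon bases with Axin2, Lef1 and Sfrp2 and were not told apart from them.

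**Figure D5:**
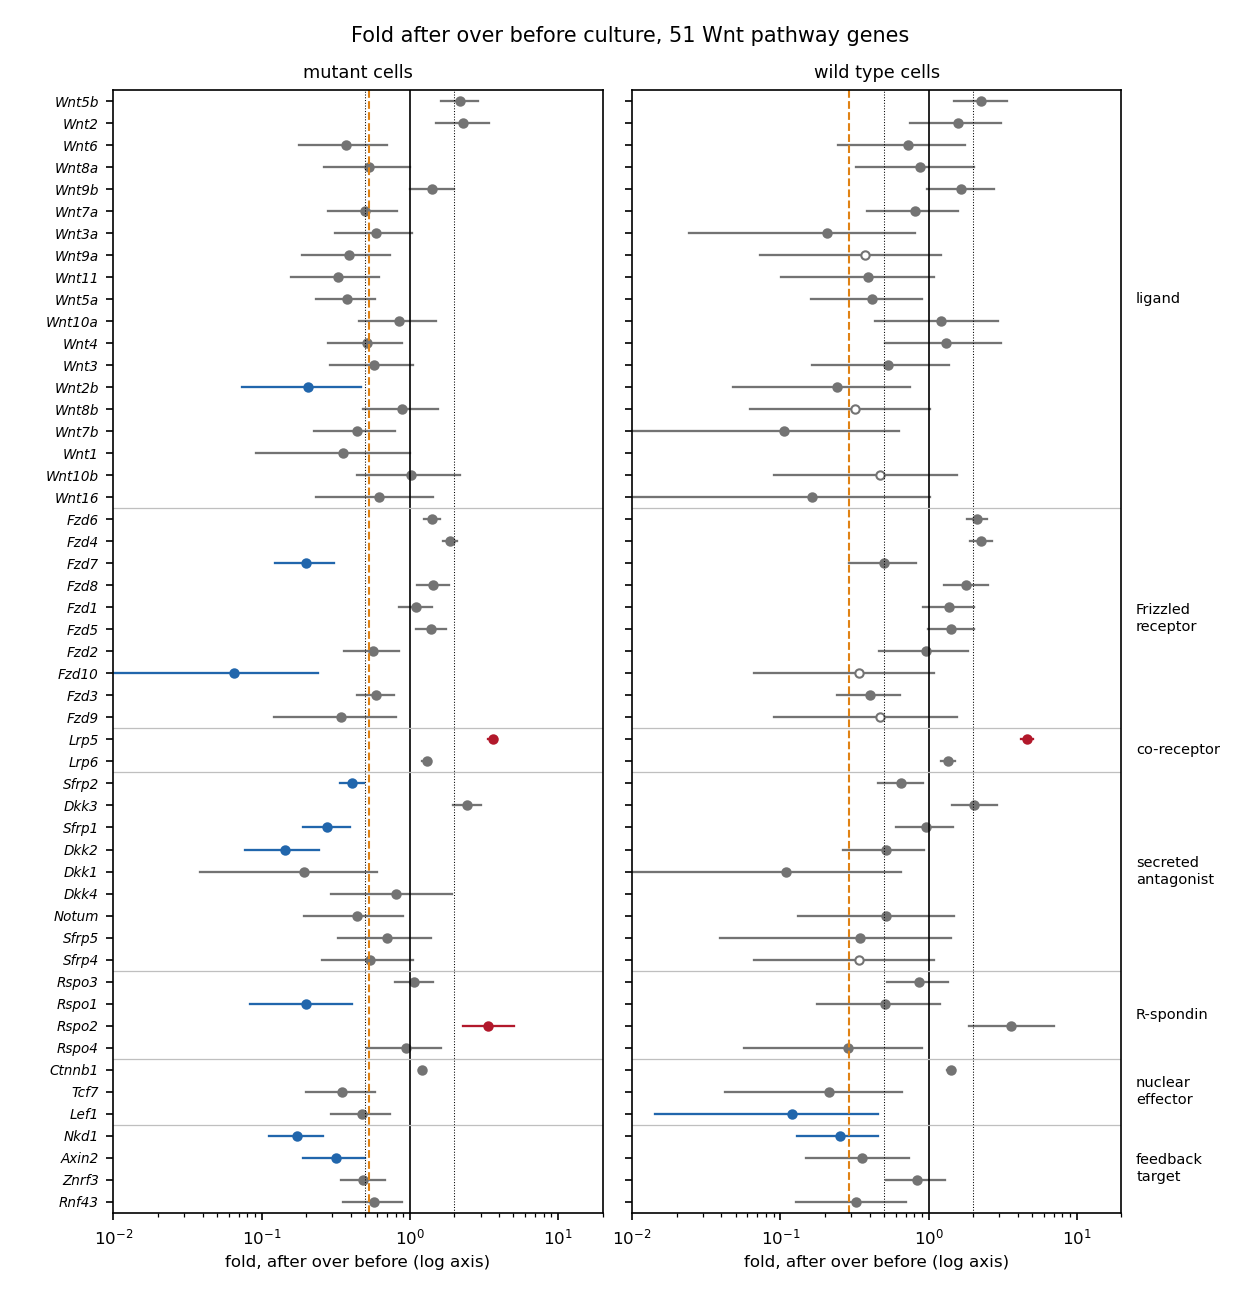
Fold of after over before culture for the members, in mutant cells (left) and wild type cells (right), on a log axis with 95% intervals. Red is called higher, blue called lower, grey not called, open symbols are bounds with 3 counts in place of 0, dotted lines are 0.5 and 2 and the dashed orange line is the summed fold of the silent genes (0.530 in mutant, 0.291 in wild type); Lrp5 is red in both panels and Nkd1 blue in both.

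The ratio of the culture fold in mutant cells to that in wild type cells describes whether a member moved alike in both. It could be formed for 44 members with counts in all 4 libraries, and its interval lay below 1 for 7 and above 1 for none. Over all 17910 genes it lay below 1 for 2805 and above 1 for 1130, so 15.9% of the members and 22.0% of all genes had an interval away from 1. The 7 members were Dkk2 at 0.277 (0.125 to 0.611), Sfrp1 at 0.290 (0.169 to 0.499), Fzd7 at 0.396 (0.205 to 0.763), Sfrp2 at 0.627 (0.430 to 0.914), Fzd6 at 0.668 (0.550 to 0.812), Lrp5 at 0.782 (0.696 to 0.878) and Ctnnb1 at 0.847 (0.785 to 0.914). Only the interval of Sfrp1 lay wholly beyond 2-fold, as it did for 54 of all genes. All of these but Fzd6 also had an interval above 1 for mutant over wild type before culture, and since both comparisons use those libraries the 2 observations are not separate.

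The wider pathway was described with 59 other genes, of which none was called between genotypes in either state without background subtracted. Of all genes, 0.0158% and 0.0475% were called higher and lower before culture, and 0.065% and 0.0731% after it. In mutant cells 3 of 58 measured genes were called higher and 4 lower after culture, and in wild type cells 7 of 57 were called higher and 1 lower. Over all genes the shares called higher and lower were 5.19% and 3.46% in mutant and 8.17% and 4.34% in wild type cells. As shares, 5.17% and 6.90% of these genes were called higher and lower in mutant cells and 12.3% and 1.75% in wild type cells. Wls, the carrier that brings Wnt proteins to the surface, rose in both genotypes, 3.60-fold (3.12 to 4.16) in mutant and 3.55-fold (2.91 to 4.34) in wild type cells. Its counts were 446 in mutant and 199 in wild type cells after culture, against 341 in mutant and 203 in wild type cells before it. Tcf7l1, a TCF factor that mostly represses, rose 2.30-fold (2.08 to 2.53) in mutant and 2.69-fold (2.32 to 3.11) in wild type cells. The co-repressor gene Tle2 rose 2.98-fold (2.34 to 3.79) in mutant and 4.38-fold (2.99 to 6.42) in wild type cells.

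Called higher in wild type cells alone were Tspan12, the partner of Frizzled 4 in Norrin signalling, Dvl3, Bcl9l and Ptk7. Tspan12 had 59.2 scaled CPM in mutant and 95.3 in wild type cells after culture, against 33.5 in mutant and 28.5 in wild type cells before it, folds of 1.77 (1.47 to 2.12) and 3.34 (2.62 to 4.27). Dvl3, one of the Dishevelled genes, had 73.6 in mutant and 130 in wild type cells after culture, against 53.6 in mutant and 44.0 in wild type cells before it, folds of 1.37 (1.17 to 1.60) and 2.96 (2.42 to 3.63). Bcl9l, a beta-catenin cofactor, had folds of 1.89 (1.71 to 2.09) in mutant and 3.03 (2.61 to 3.51) in wild type cells, and Ptk7, a polarity receptor, 1.70 (1.56 to 1.87) and 2.45 (2.12 to 2.83). Whether the genotypes differ in these 4 culture folds was not tested.

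The genes called lower were Tnfrsf19, Ror1, Apcdd1 and Kremen2. Tnfrsf19, a known target of beta-catenin, had 22 counts in mutant and 3 in wild type cells after culture, against 220 in mutant and 93 in wild type cells before it, and fell 3.63-fold (2.34 to 5.91) in mutant and 8.55-fold (2.84 to 42.2) in wild type cells. In mutant cells Ror1, a receptor of WNT5A, fell 6.32-fold (3.35 to 13.4), Apcdd1, an inhibitor at the membrane, fell 5.27-fold (3.51 to 8.25), and Kremen2, a Dkk partner, fell 6.71-fold (2.51 to 25.3). In wild type cells their folds were 0.306 (0.119 to 0.658), 0.356 (0.199 to 0.596) and 0.207 (0.0241 to 0.806), with intervals below 1 that were not called. With coding-rate background subtracted, 3 of 56 other pathway genes were called higher and 2 lower in mutant cells, against 7.29% and 2.44% of all genes. In wild type cells 12 of 55 were called higher and 0 lower, against 13.2% and 1.36%. Between genotypes before culture, 1 of 56 was then called higher in mutant cells and 0 lower, against 0.0553% and 0.0111%. After culture 0 of 47 were called between genotypes, against 0.0163% higher and 0.106% lower. Ror1 was then no longer called in mutant cells, nor Tnfrsf19 in wild type cells. Without subtraction, no gene of the planar polarity list, 8 measured, was called in any comparison. With coding-rate background subtracted, 1 of the 8 was called higher in culture of wild type cells.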

How the data were processed

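Raw gene counts per symbol were deposited for each of 4 libraries. The authors used bcl2fastq, STAR, HTSeq 0.11.2 and mm10, per the submitters' processing notes, and the deposited tables are named as deduplicated with sambamba. Neither the annotation nor the strand setting is stated in the sources used here. Per the labels' protocols, libraries were stranded, from total RNA, and read as pairs of 75 nt. HTSeq's summary classes were left out of totals: the share of all pairs outside annotated genes was 30.3% in mutant and 19.996% in wild type cells after culture, and 53.6% in mutant and 66.5% in wild type cells before it. All pairs include those not aligned, 56.2% in mutant and 67.6% in wild type cells after culture, and 34.1% and 21.4% before it. Of pairs placed inside, outside or ambiguously between genes, 74.2% in mutant and 66.7% in wild type cells lay outside after culture. Before culture these were 85.8% and 89.3%.

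Counts were scaled with the TMM factors of edgeR 4.0.16 in R 4.3.3 (0.851 for mutant and 0.811 for wild type after culture, 1.16 and 1.25 before it). Levels have exact Poisson 95% intervals, folds the Clopper-Pearson 95% interval of the share of 1 library in both, and ratios of folds a Wald interval on the log scale. These cover counting error only, as amplified reads without molecular identifiers are not independent molecules. Genes needed 20 counts in at least 1 of the 2 libraries, and 0 counts were replaced by 3. With 1 library a group no pair of groups was tested. edgeR's quasi-likelihood test was run over the 4 libraries with genotype and culture as additive terms, an analysis added after seeing the data. Exon lengths, positions and overlaps came from GENCODE vM21 on GRCm38, the assembly of mm10, for 97.9% of symbols. Both procedures were tested on simulated data.

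Members and gene lists were chosen with earlier results of these data known. Named were the called members, Wnt2, Wnt9b, Sfrp2, Axin2, Lef1, Ctnnb1, Lrp5 and Lrp6, the 2 highest members never called in each role, and of other pathway lists up to 2 called genes each. Other genes named were chosen after their values were seen. Alternatives were DESeq2 1.42.0 size factors, library totals, subtracted background, filters, fold thresholds and the treatment of 0 counts. Subtraction at the coding-length rate was added after seeing the data.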

Additional observations from a re-analysis of the deposited data

Results flagged for a closer look

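In 3 members the genotype fold, mutant over wild type, lay on opposite sides of 1 after and before culture, each with an interval away from 1. These differences between the culture states were not tested, with 1 library a group, and the ratios of culture folds describe them with counting error only. Such a ratio had an interval away from 1 in 22.0% of all genes. The share of all genes with folds on opposite sides of 1 is not given, so the 3 are not a result about the members. Fzd7 had a fold of 0.502 after culture and 1.27 before it, and the value after culture rests on 22 counts in mutant and 18 in wild type cells. Sfrp1 had a fold of 0.514 after culture and 1.77 before it, on 35 and 28 counts after culture in mutant and wild type cells. Ctnnb1 had a fold of 0.930 after culture and 1.1 before it, and the value before culture fell under 1 in 1 reading with background subtracted and scaling recomputed.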

How the results depend on the processing

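No called member turned its direction under any alternative run that gave it a fold. With coding-rate background subtracted, Lef1 had no fold in culture of wild type cells. Its counts there were 60 against 58.4 expected before culture and 2 against 4.73 after it. Before culture, 1 member (Sfrp2) was higher in mutant cells where the interval had only to pass 1.5-fold, against 0. For culture of mutant cells, the 2 called higher became 1 under library totals, 6 at 1.5-fold and 0 at 4-fold, and the 9 called lower became 14 under library totals, 13 at 1.5-fold and 2 at 4-fold. For culture of wild type cells, the count of members called higher was 1, and became 2 with background subtracted at the exon rate (also with scaling recomputed) or at the coding rate, and 4 at 1.5-fold. The count called lower there was 2, and became 9 under library totals, 6 at 1.5-fold, 6 with the plain interval for 0 counts, 1 with exon-rate background (also with scaling recomputed), 1 with coding-rate background and scaling recomputed, and 0 with coding-rate background alone or at 4-fold. Library totals shift the median log2 fold of all genes by -0.45 in mutant and -0.62 in wild type culture, and by 0.07 between genotypes after culture and -0.11 before it. For these counts, the share of all genes is given only under the 2-fold rule, without subtraction and with coding-rate background alone. Under the other settings no such share is given, so those counts are not a result about the members. Of the single folds, 0 of 176 left their own interval under DESeq2 size factors, 26 of 176 under library totals and 28 of 169 with coding-rate background. The cause of each shift was not tested. No paired analysis was possible because the labels give each group 1 library and so 1 replicate number, and no library could be left out of a group. The edgeR fit with genotype as a block, added after seeing the data, called 7 members higher and 21 lower after culture, among them each of the 2 and 9 called in mutant and the 1 and 2 called in wild type cells. Under library totals the block fit called 4 higher and 24 lower after culture, or 7.84% and 47.1% of the members. The shares of all genes were 10.3% and 34.2%, and 29.7% of the 185 silent genes were called lower. By genotype that fit called 1 member higher in mutant cells, against 0.0369% of all genes. Depth limits the wild type library after culture most: 7 of the 51 members had 0 counts there.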
